A study of Mus musculus with 6 samples.

Results

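Melan-a is an immortal line of pigmented mouse melanocytes derived from the C57BL/6 strain and kept in continuous culture. Cells grown in serum with the phorbol ester TPA received, by lipofection with magnetofection, either siDicer, which targets the microRNA-processing enzyme Dicer, or the control siScr. RNA was taken 24 hours later and hybridised to mouse Clariom D arrays. Each siRNA was used in cells at passage 47, passage 54 and passage 56, so that the 6 arrays of the series divide into 2 of the early passage and 4 of the late ones. The passage labels alone assign the arrays, all 6 of 6 arrays enter, and the siRNA is a term in every comparison because it is balanced over the passages. The siDicer and siScr cells of a passage carry the same replicate number in the labels and are treated here as 1 culture, which leaves 1 early and 2 late cultures. Passage number and culture batch therefore cannot be told apart, and p-values measure the spread between arrays. Dicer1 was not analysed here, and the siRNA groups rest on the labels. Of the 7530 probe sets with 1 gene symbol, 7439 were placed on chromosomes 1 to 4. Counts of measured genes and shares of all probe sets below refer to the probe sets analysed and not to the whole genome.

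A passage is 1 round of lifting cells from the dish and replating them, and a line carried through many rounds can drift, because faster-growing variants take over and because each culture has its own history of density and feeding. Several programs are known to vary between cultures of a line. Genes of DNA replication and mitosis follow the share of cells in the division cycle. Interferon-stimulated genes are switched on by interferon or by sensors of foreign nucleic acid in the cytoplasm, and among them the Ifi200 family on chromosome 1 encodes sensors and nuclear regulators with a HIN domain that binds DNA. Expression of matrix and signalling receptors can change with cell density.

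The melanocyte label held in all arrays. Tyrp1, a melanosomal enzyme of melanin synthesis, lay between 12.73 and 12.92 log2 units, Pax3, a lineage transcription factor, between 10.51 and 10.63, and Mlph and Slc24a5, which serve melanosome transport and melanosomal ion exchange, between 10.02 and 10.86. The other defining markers Tyr, Dct, Pmel, Sox10 and Mlana were not analysed here. As a gauge of background, the 95th percentile of 426 olfactory and vomeronasal receptor genes was 4.22 log2 units, and 9475 of 16383 probe sets had a mean above it. The leukocyte marker Ptprc, the endothelial marker Tek and the fibroblast markers Prrx1 and Fap had means below this level. Other markers of these cells did not, and 5 of 6 leukocyte, 1 of 2 endothelial and 3 of 5 fibroblast markers were above it. So were 2 of 5 keratinocyte markers, both of the 2 measured muscle markers and all 3 measured Schwann cell markers. The part of other cells was not tested. Array medians ran from 4.58 to 4.64 and correlations between arrays from 0.994 to 0.997. The RNA integrity number was 10 at passages 47 and 56 and 9.7 and 9.8 in the siDicer and siScr arrays of passage 54.

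Sequences are shown for promoters of some genes named below, to let the interferon-responsive genes be set beside each other and beside genes of the division cycle. Each run is the 100 bases just before a RefSeq transcription start in build GRCm38.p6, read 5′ to 3′ on the gene's strand. Capitals mark GAAA, any 2 bases and GAAA again, or the reverse complement of this run, the core of the interferon-stimulated response element, in the genes down to Sp100, the E2F site TTTGGCGC or its reverse complement GCGCCAAA in Mcm6, and the cell cycle homology element TTTGAA or its reverse complement TTCAAA in Cdc20 and Ube2c.
Ifi207, chr1:173741810-173741909, minus strand: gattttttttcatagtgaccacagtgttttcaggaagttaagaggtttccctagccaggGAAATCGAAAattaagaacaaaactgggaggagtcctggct
Ifi211, chr1:173913047-173913146, minus strand: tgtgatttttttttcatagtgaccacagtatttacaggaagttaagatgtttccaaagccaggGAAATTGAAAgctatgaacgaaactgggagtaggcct
Mndal, chr1:173880188-173880287, minus strand: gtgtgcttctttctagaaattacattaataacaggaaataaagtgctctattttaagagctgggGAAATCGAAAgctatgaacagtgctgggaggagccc
Gbp7, chr3:142530236-142530335, plus strand: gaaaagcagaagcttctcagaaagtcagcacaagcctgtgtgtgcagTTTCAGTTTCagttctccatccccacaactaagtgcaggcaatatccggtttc
Ifi213, chr1:173599273-173599372, minus strand: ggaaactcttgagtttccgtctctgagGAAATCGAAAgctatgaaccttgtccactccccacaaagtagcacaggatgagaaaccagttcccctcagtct
Sp100, chr1:85649888-85649987, plus strand: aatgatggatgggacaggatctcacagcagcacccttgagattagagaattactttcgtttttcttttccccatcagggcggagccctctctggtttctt
Mcm6, chr1:128359706-128359805, minus strand: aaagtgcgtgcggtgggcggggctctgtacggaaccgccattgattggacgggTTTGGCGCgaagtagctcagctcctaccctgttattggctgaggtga
Cdc20, chr4:118437344-118437443, minus strand: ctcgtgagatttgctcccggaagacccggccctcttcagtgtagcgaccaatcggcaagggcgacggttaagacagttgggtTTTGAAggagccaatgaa
Ube2c, chr2:164769829-164769928, plus strand: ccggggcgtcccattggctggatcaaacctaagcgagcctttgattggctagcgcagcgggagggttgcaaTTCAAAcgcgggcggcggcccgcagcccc

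The response element match began 41 bases before the start in Ifi207, 37 in Ifi211, 36 at the start shown for Mndal, 53 in Gbp7 and 73 in Ifi213. Sp100 had no match in its window. Over windows from 250 bases before to 50 after each start, both strands included, 10 of the 19 measured interferon response genes with a window held a match, which is 52.6%, against 3.99% of all 27025 genes. In Ifih1 and Ddx58 the match lay after the start. Ifi204, Zbp1, Trim14 and Psmb2 are named only. The E2F site was found in 5 of 15 measured replication genes with a window, or 33.3%, and in 0.585% of all genes. The cell cycle homology element is short and was found in 20.2% of all genes, and in 18 of 32 measured cell division genes, or 56.2%. A match to TTTGAA can share bases with a match to the response element. These are letter matches and describe the windows only.

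The comparison of late with early passage asked which transcripts differed between cells after 47 passages and cells after 54 or 56. Eng, which encodes endoglin, a co-receptor for TGF-beta and BMP ligands, fell. Its signal at passages 47, 54 and 56 was 8.43, 7.33 and 7.10 in siScr and 8.59, 7.33 and 7.25 in siDicer. Both early arrays lay above all 4 late arrays, and the late mean was 2.39-fold lower, a fall by 1.26 log2 units (SE 0.08, limma adjusted p = 0.0131). In bulk cultures fewer cells of a kind and less RNA per cell cannot be told apart. Eng was the 1 probe set of 16383, or 0.0061%, past an adjusted p of 0.05, and no probe set passed upward (0%), although 2010 had an unadjusted p under 0.05 (1024 higher, 6.25%, and 986 lower, 6.02%). Since nearly all placed genes lie on chromosomes 1 to 4, genes of other chromosomes were hardly covered by this count. Without any 1 of siDicer replicate 1, siDicer replicate 2, siDicer replicate 3 or siScr replicate 1 the Eng call was lost, with limma adjusted p from 0.108 to 0.574. Over all alternatives tried its difference stayed between -1.33 and -1.18 and its adjusted p between 0.000736 and 0.574. Without siScr replicate 3, 17 probe sets passed. The endothelial markers Tie1 and Tek differed by -0.08 each and did not pass.

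**Figure D1:**
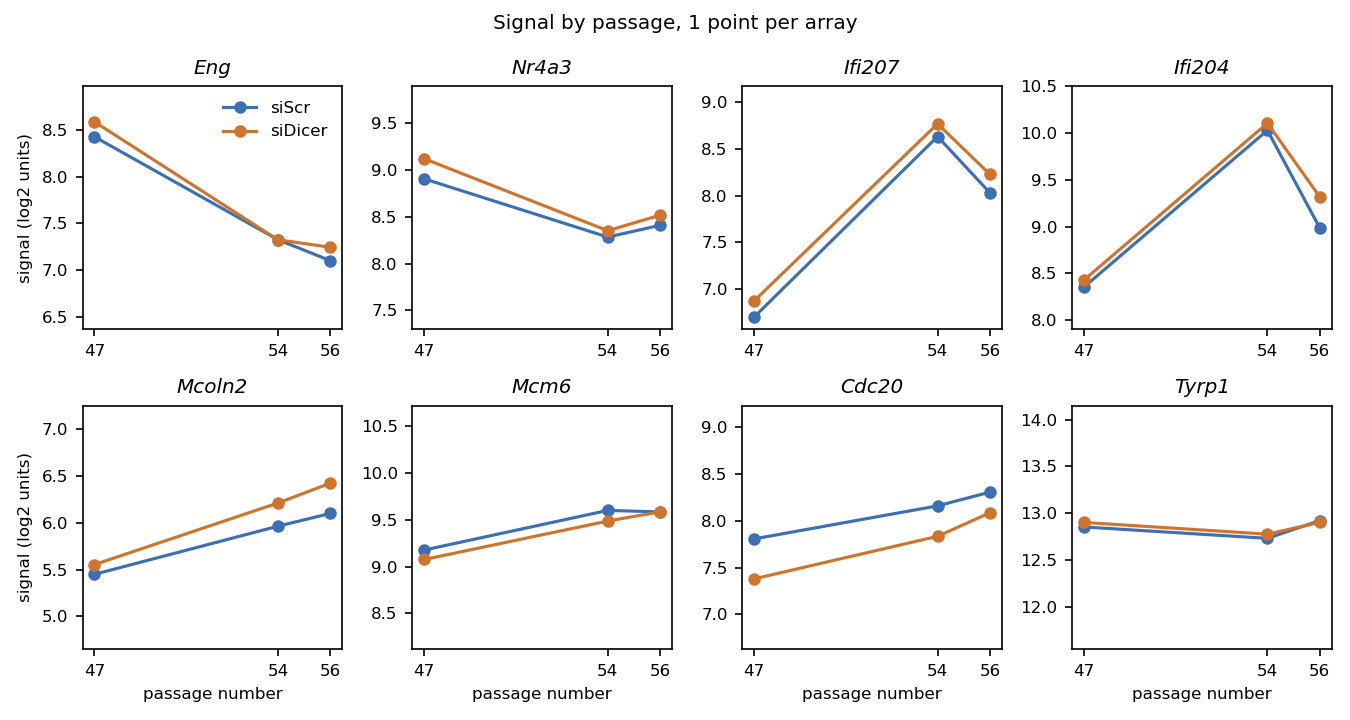
Signal in log2 units (vertical axis, the same span in each panel) against passage number for 8 genes, 1 point per array, with siScr in blue and siDicer in orange and lines joining arrays of 1 siRNA. Eng lies between 8.43 and 8.59 at passage 47 and between 7.10 and 7.33 at both late passages, Ifi207 and Ifi204 peak at passage 54, Mcm6 and Cdc20 are higher at both late passages, and Tyrp1 stays between 12.73 and 12.92.

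In that fit the distance between passages 54 and 56 counts as spread. With passage entered as 3 levels (the replicate block), the spread is only that between the siRNAs within a passage, and 56 probe sets passed for late against early, 47 higher and 9 lower (0.342%, 0.287% and 0.0549% of all). These p-values say nothing of how far any pair of cultures of 1 passage would differ. With replicate number as a random block 1 probe set passed, Eng again, with a consensus correlation of -0.05. Of the 56, 45 differed at least 1.5-fold, 50 had early and late arrays that did not overlap (21% of all probe sets did not), 27 carried 1 gene symbol and 23 none. Of the 56, 10 repeat the values of another exactly, which leaves 46 distinct ones. These need not be 46 separate transcripts. Many of the 47 higher ones lie in the Ifi200 family or the repeat region of Csprs and Sp100, described below, where copies may share probes. Those with a symbol there are Ifi207, Ifi204, Ifi211, Mndal, Ifi203-ps, Sp100 and the pair of Csprs probe sets. Probe sets with no symbol were not placed, so the full part of these regions was not counted. All 10 repeats are among the 47, so the share of 0.287% counts some signals more than once. The largest difference, 1.92, belonged to a probe set with no symbol. In 53 of the 56, passage 54 lay farther from passage 47 than passage 56 did, and only 3 kept the order 47, 54, 56. Over all probe sets above background 50.8% had their larger difference at passage 54.

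Interferon-stimulated genes had late minus early differences above 0 in most members. The list had 23 measured genes, 20 of them above background. In the 3-level limma fit 6 of the 23 rose and none fell, where the shares over all probe sets were 0.287% and 0.0549%. The 6 include Ifi207, Ifi204, Ifi211 and Mndal, close copies that may share probes and need not count separately. The 2 against 4 fit called none, and 20 of the 23 differences were above 0, against 51.5% of probe sets above background. The list median was 0.37 log2 units, where the median over all probe sets was -0.01. In 17 of the 23 both late arrays lay above the early array within each siRNA, a pattern seen in 21.6% of probe sets above background and 15.7% of all. In 11 of the 23 the late arrays all lay above the early ones, as in 12% of probe sets above background and 8.78% of all.

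Ifi207, a HIN-domain member of the Ifi200 family, had signals at passages 47, 54 and 56 of 6.70, 8.63 and 8.03 in siScr and 6.87, 8.77 and 8.23 in siDicer. All 4 late arrays were above both early ones, and those of passage 54 were the highest. Its late minus early difference was 1.63 log2 units, or 3.09-fold (SE 0.19, limma adjusted p = 0.0978, and 0.000589 with passage as 3 levels). Ifi204, an interferon-inducible DNA sensor, gave 8.35, 10.03 and 8.98 in siScr and 8.43, 10.10 and 9.32 in siDicer and a difference of 1.22 (limma adjusted p = 0.256 and 0.00185). Ifi211 gave 7.54, 9.09 and 8.13 in siScr and 7.62, 9.16 and 8.43 in siDicer and a difference of 1.12 (0.256 and 0.00189 in the same limma fits). In each of these genes the 2 siRNA arrays of a passage lay closer to each other than to any array of another passage.

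Mndal, another nuclear member of the family, had 5.30, 6.68 and 5.95 in siScr and 5.39, 6.90 and 6.28 in siDicer, a difference of 1.11 and a 3-level limma adjusted p of 0.00185. The pseudogene Ifi203-ps, named after its values were seen, had 5.27, 6.62 and 5.96 in siScr and 5.48, 6.83 and 6.34 in siDicer and a difference of 1.06 (adjusted p 0.00185). Aim2, the inflammasome sensor of cytosolic DNA, had 4.83, 5.46 and 5.10 in siScr and 4.78, 5.63 and 5.39 in siDicer. Its difference of 0.59 missed the threshold in both fits (limma adjusted p = 0.23 and 0.0643). Members of the family are close copies of each other, which may share probes, and single members are uncertain.

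In chromosome order the measured members are Aim2, Ifi213, Ifi209, Ifi208, Ifi207, Ifi204, Ifi203-ps, Mndal and Ifi211. Ifi213, Ifi209 and Ifi208 had mean levels below background, at 3.78, 2.92 and 3.77, and passage 54 minus 47 differences of 0.16, 0.01 and 0.26. The 5 genes from Ifi207 to Ifi211 differed by 1.35 to 1.91 at passage 54 and by 0.69 to 1.34 at passage 56. Next to them, the olfactory receptor genes on the far side of Ifi211 ranged from -0.16 to 0.24 at passage 54. All of these but Olfr433 and Olfr231 had means below background, so most could not show a difference. Ifi213, which was below background, and Ifi207 carry the same matched letters in the sequences above.

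**Figure D2:**
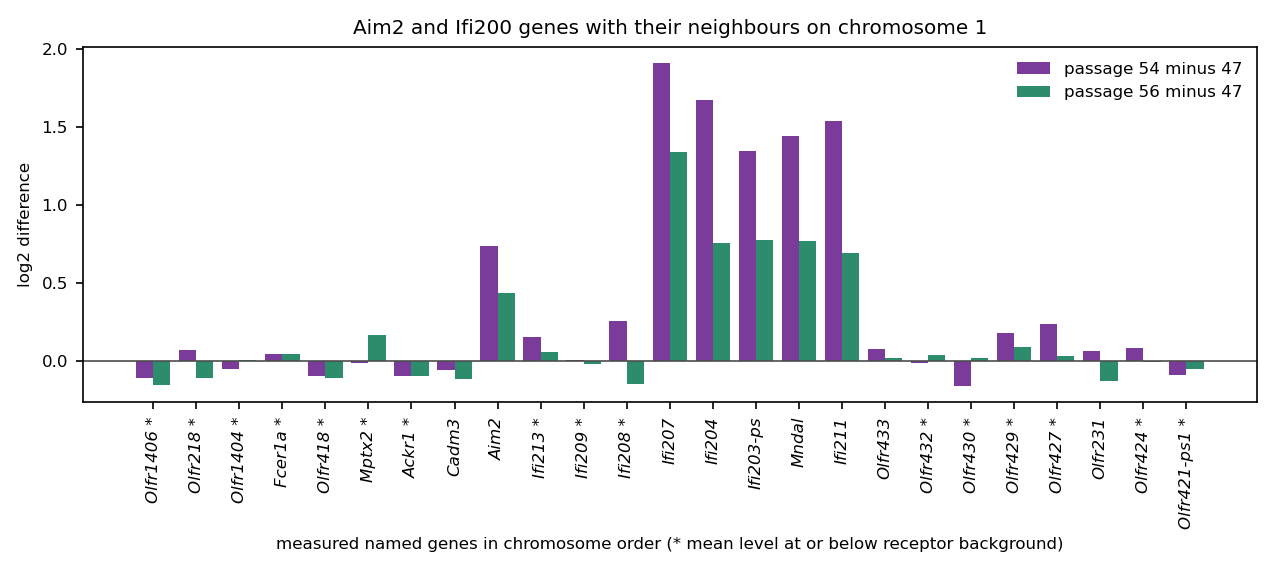
Log2 difference from passage 47 (vertical axis) at passage 54 (purple) and passage 56 (green), as the mean over both siRNAs, for measured named genes in chromosome order. The 5 genes from Ifi207 to Ifi211 stand between 1.35 and 1.91 at passage 54 and between 0.69 and 1.34 at passage 56, with receptor genes near 0 beside them; an asterisk marks a mean level at or below background.

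Outside the family, Ifih1, which encodes the cytoplasmic sensor of long double-stranded RNA MDA5, had 6.06, 7.41 and 6.34 in siScr and 6.38, 7.48 and 6.79 in siDicer. The passage 54 arrays were the highest, and the passage 56 siScr array lay below the passage 47 siDicer array. Its difference of 0.79 passed with passage as 3 levels (limma adjusted p = 0.0293) and not otherwise (0.371). Sp100, a nuclear body protein, had 5.61, 6.84 and 5.91 in siScr and 5.78, 6.86 and 6.17 in siDicer and a difference of 0.75 (limma adjusted p = 0.351 and 0.0126). Csprs, which lies in the Sp100 repeat region, was measured by a pair of probe sets with differences of 1.57 and 1.63 and 3-level limma adjusted p of 0.00731 and 0.00407. Copies in this region may share probes, so Csprs and Sp100 are uncertain too.

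The guanylate-binding proteins Gbp7, Gbp3 and Gbp2, GTPases that act against intracellular pathogens, had differences of 0.64, 0.64 and 0.41, none past the threshold in either fit. Gbp7 gave 7.59, 8.70 and 7.80 in siScr and 7.13, 7.999 and 7.52 in siDicer, with the siDicer array of passage 56 below the siScr array of passage 47. Ddx58, the RNA sensor RIG-I, differed by 0.46, and B2m, the light chain of MHC class I, by 0.23, also short of the threshold. Adar, Samhd1, Nmi and Sp110 lay between 0.25 and 0.37. Ifi44l, Trim14 and Ifi209 were below 0. The 11 interferon alpha genes had a median difference of -0.13, with 2 above 0 and none called for late minus early. Without siDicer replicate 1 that median was -0.04, and without siScr replicate 2 it was -0.07. Of the 11, 7 had a mean above background. Their median level ran from 4.10 to 4.44 log2 units over the arrays, near the background of 4.22, so small differences in this class are uncertain.

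**Figure D3:**
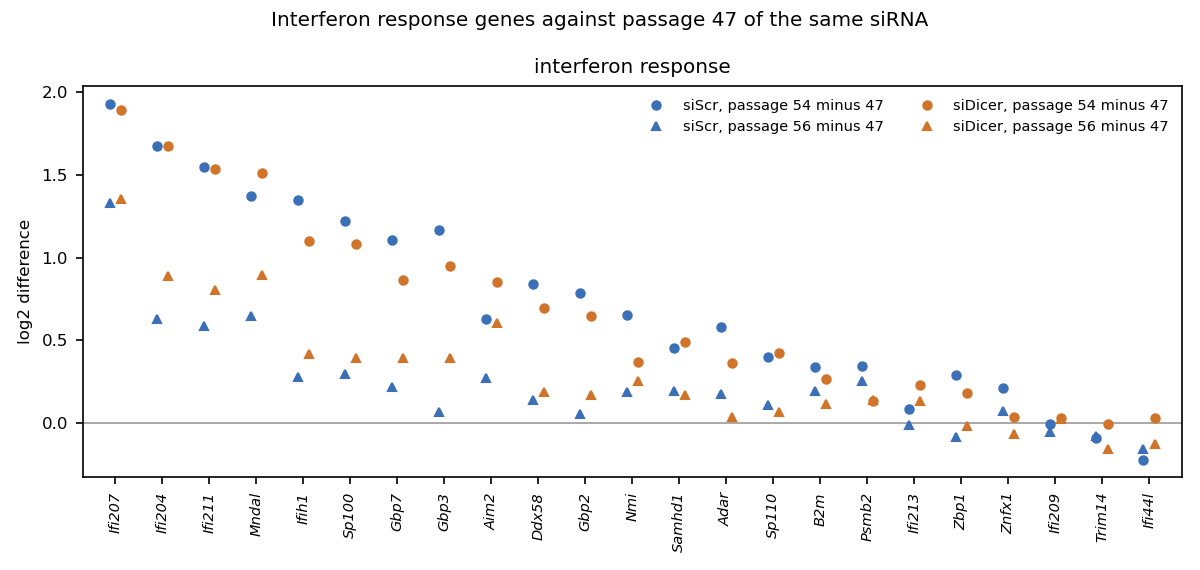
Log2 difference from the passage 47 array of the same siRNA (vertical axis) for the 23 measured interferon response genes, sorted by the late minus early difference. Circles are passage 54 and triangles passage 56, with siScr in blue and siDicer in orange; for the genes on the left, from Ifi207 to Gbp2, circles lie above the triangles of the same siRNA.

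Most interferon genes had their highest signal at passage 54, and all 23 had a lower mean at passage 56 than at passage 54. The list median was 0.51 for passage 54 minus 47, 0.18 for 56 minus 47 and -0.32 for 56 minus 54, and 0 of 23 members had a positive 56 minus 54 difference. These 3 differences share arrays and are given side by side. For Ifi204 the 56 minus 54 difference was -0.92 (SE 0.09), for Ifi211 -0.85 and for Ifi207 -0.57. No probe set passed for 56 minus 54 in limma over all rows (0%), where 1602 had an unadjusted p under 0.05 and the smallest adjusted p was 0.0518. That count sat at the edge of the threshold. Over the 7530 probe sets with 1 symbol 100 passed, 24 higher and 76 lower at passage 56, and using only the 4 arrays of these passages 114 passed, 23 higher and 91 lower. In both, 10 of the 23 interferon genes fell from passage 54 to 56 and none rose. RNA integrity was also lower at passage 54, at 9.7 and 9.8 against 10, and its part in these differences was not tested. Of 6 leukocyte markers 5 were above background, and their median level lay between 4.85 and 4.96 in the early arrays and between 4.83 and 4.95 in the late ones. The defining marker Ptprc stayed between 2.83 and 2.86, below background, while Cd53 differed by 0.49 (limma adjusted p = 0.185).

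Passage 54 also carried most of the calls when each late culture was set against passage 47. For 54 minus 47, 124 probe sets passed (0.757%), 105 higher and 19 lower, and for 56 minus 47, 25 passed (0.153%), 23 higher and 2 lower. The passage 47 arrays serve in both. Many of the 25, all of them higher, repeat the values of another exactly. Others are close copies in the Ifi200 family or the Csprs and Sp100 region that may share probes. These counts need not be of separate transcripts. Of the 23 interferon genes 12 passed for 54 minus 47, all higher, and 2 for 56 minus 47, Ifi207 and Mndal. The F test for any difference among the 3 passages called 96 probe sets (0.586%). Beside these, siDicer minus siScr in the same fit called 163 (0.995%). In the median probe set above background, passage accounted for 46.1% of the variation, late against early alone for 21.2%, the siRNA for 21.2% and the remainder for 17.9%. A term for 3 passages takes up more variation than the siRNA term even where neither differs, so the first share is not like for like. The shares of late against early and of the siRNA, each a single contrast, were level.

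Further genes passed with passage as 3 levels and were named after their values were seen, and these too were mostly highest or lowest at passage 54. Atp1b1, the beta subunit of the sodium pump, had 6.91, 8.16 and 7.20 in siScr and 7.54, 8.65 and 7.81 in siDicer and a difference of 0.73 (limma adjusted p = 0.00745). Ddr2, a collagen receptor kinase, had 5.85, 6.97 and 6.31 in siScr and 5.86, 6.92 and 6.39 in siDicer and a difference of 0.79 (0.0049, same fit). S100a4, a calcium-binding protein linked to cell motility, differed by 0.47, Nppb, the precursor of brain natriuretic peptide, by 0.55, and Dhrs9, a retinol and steroid dehydrogenase, by 0.81. In S100a4 the passage 56 value in each siRNA lay closer to passage 47 than to passage 54. Abca12, a lipid transporter, and Glrb, the beta subunit of the glycine receptor, fell by 0.57 and 0.48. None of these genes passed in the 2 against 4 fit, where their limma adjusted p ran from 0.236 to 0.391.

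Cell division genes had small late minus early differences, nearly all above 0. Of 36 measured members 35 had a difference above 0. None passed in either limma fit, where 0.0061% and 0.342% of all probe sets did. The list median was 0.32 log2 units. At an unadjusted p under 0.05, 32 were higher and 0 lower, where the shares over all probe sets were 6.25% and 6.02%. Within each siRNA both late arrays lay above the early array in 31 of the 36, a pattern seen in 21.6% of probe sets above background and 15.7% of all. Both lay below it in 1 (20.1% of all probe sets), Rcc2, a regulator of chromosome condensation at -0.14. The late arrays all lay above the early ones in 12, where the shares were 12% above background and 8.78% of all. The list median of siDicer minus siScr was -0.27.

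Aurka, the mitotic spindle kinase Aurora A, gave 8.66, 9.04 and 9.08 in siScr and 8.08, 8.47 and 8.55 in siDicer at passages 47, 54 and 56. Within siScr and within siDicer the late arrays were above the early one, but the siDicer late arrays did not reach the siScr early one. Its difference was 0.41 (SE 0.06, limma adjusted p = 0.112). Cdc20, an activator of the anaphase-promoting complex, had 7.81, 8.16 and 8.31 in siScr and 7.38, 7.84 and 8.09 in siDicer, a difference of 0.50 and an adjusted p of 0.167 by limma. Ube2c, the ubiquitin-conjugating enzyme of the same complex, differed by 0.37. The kinetochore genes Knl1, Bub1 and Cenpf had differences of 0.43, 0.41 and 0.39.

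The median difference of cell division genes was larger at passage 56 than at passage 54. It was 0.25 for 54 minus 47, 0.41 for 56 minus 47 and 0.16 for 56 minus 54, and 34 of 36 members were above 0 in the last. None of the 36 passed for 56 minus 54, over all rows or over probe sets with 1 symbol. The late minus early median was 0.24 in siScr and 0.38 in siDicer. The interaction of passage with siRNA called no probe set in limma (0%, with 612 at an unadjusted p under 0.05), so that a difference between the siRNAs in the size of the passage difference was not detectable.

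**Figure D4:**
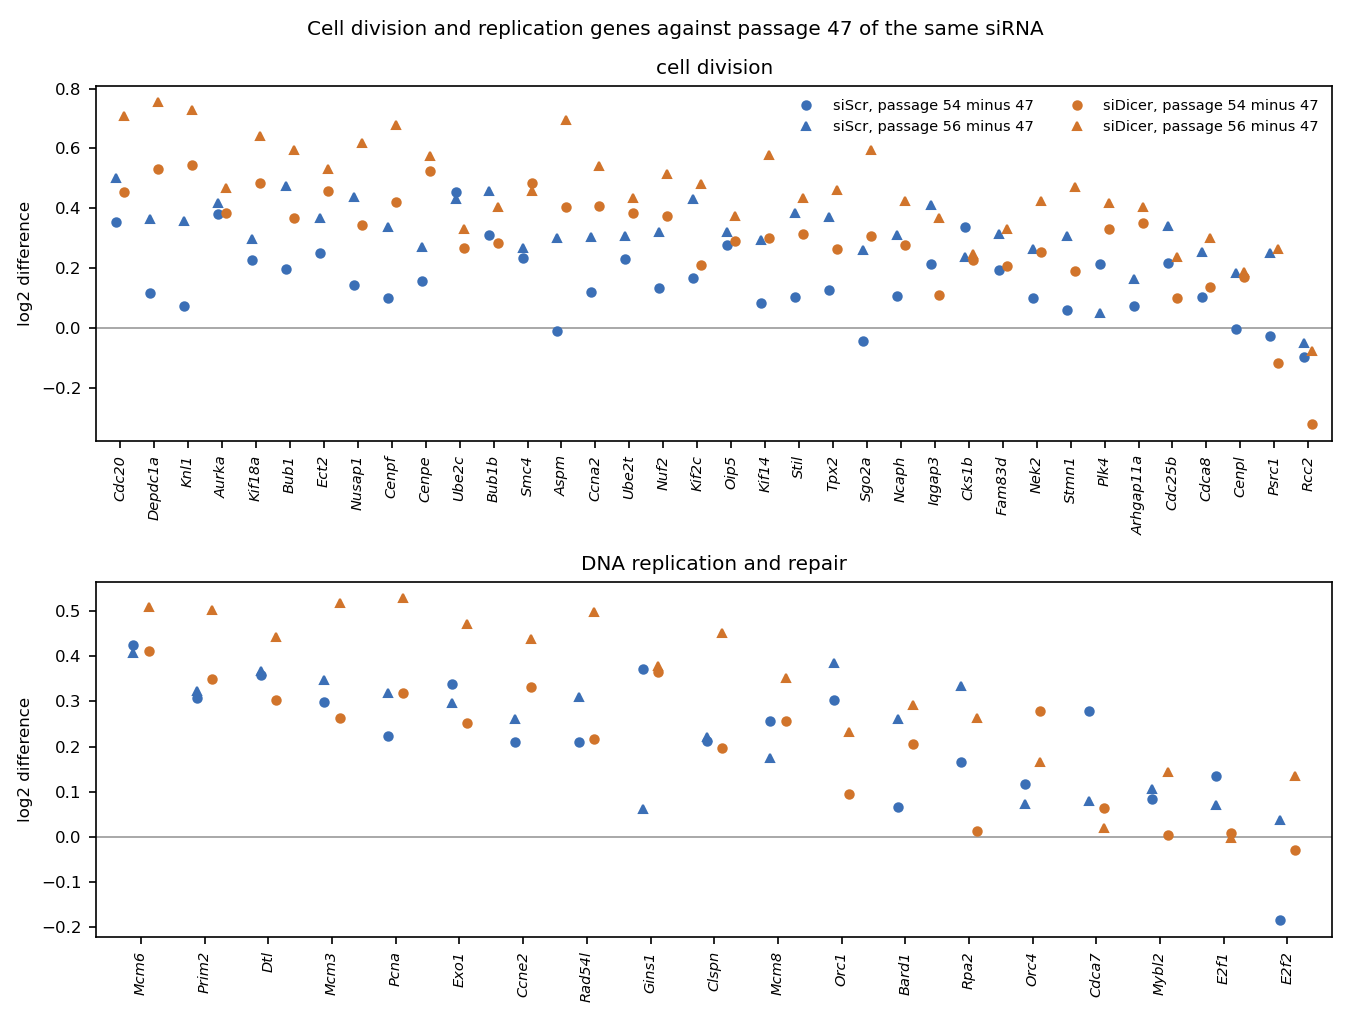
Log2 difference from the passage 47 array of the same siRNA (vertical axis) for 36 cell division genes and 19 replication and repair genes, sorted by the late minus early difference. Circles are passage 54 and triangles passage 56, with siScr in blue and siDicer in orange; most points lie above 0, and Rcc2 has all 4 points below.

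Replication and repair genes showed smaller differences of the same sign. Of 19 measured members 18 were above 0 and the median was 0.27. None passed, where 0.0061% of all probe sets did. In 17 both late arrays exceeded the early array within each siRNA (21.6% of probe sets above background), and in 14 the late arrays all lay above the early ones (12% above background). Mcm6, a subunit of the replicative helicase whose promoter is shown above, had 9.18, 9.60 and 9.58 in siScr and 9.08, 9.49 and 9.59 in siDicer. Its late arrays were all above its early ones, and passages 54 and 56 were nearly level. The difference was 0.44 (SE 0.06, limma adjusted p = 0.0998). Prim2, the large primase subunit, differed by 0.37, Dtl, a substrate receptor that marks replication licensing factors for destruction, by 0.37, Mcm3 by 0.36 and Pcna, the polymerase clamp, by 0.35. Ccne2, cyclin E2, differed by 0.31. The transcription factors E2f1 and E2f2 were near 0 at 0.05 and -0.01. The replication-dependent histones H2ac20 and H2bc18 differed by 0.40 and 0.41, while the median of 6 measured histone genes was 0.10, or 0.22 without siDicer replicate 1 and 0.05 without siScr replicate 1.

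Growth arrest genes gave no call for late minus early. Of 22 measured p53 target, Ink4 locus and senescence genes none passed there, where only 0.0061% of all probe sets did. Of the 22, 9 were above 0 and the median was -0.03. For 54 minus 47, 1 of the 22 passed in limma, higher, where 0.757% of all probe sets passed. The F test for any difference among the passages also called 1, where it called 0.586% of all. Cdkn2a, which encodes p16 and Arf, gave 7.05, 7.03 and 6.96 in siScr and 7.11, 7.05 and 7.11 in siDicer and a difference of -0.04. Cdkn2b, which encodes p15, had 7.31, 7.25 and 7.06 in siScr and 7.46, 7.23 and 7.12 in siDicer, with late arrays below early ones and a difference of -0.22 that did not pass (limma adjusted p = 0.343). Mdm4, an inhibitor of p53, differed by 0.15.

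Genes of protein synthesis and energy supply had small differences above 0. All 9 measured cytosolic and 19 mitochondrial ribosomal protein genes and all 10 proteasome subunits had differences above 0, with medians of 0.15, 0.09 and 0.18, and 22 of 23 respiratory chain subunits did, with a median of 0.14. None of these passed, where 0.0061% of all probe sets did. The class medians for 56 minus 54 were negative, at -0.14, -0.09, -0.08 and -0.09. After quantile normalization the medians were smaller, at 0.04 for mitochondrial ribosomal proteins, 0.05 for the respiratory chain and 0.10 for the proteasome, and after cyclic loess 0.07 for cytosolic ribosomal proteins. Psmd14, a proteasome deubiquitinase, differed by 0.25, Atp5pb, a subunit of ATP synthase, by 0.25 and Mrpl24 by 0.24. Such differences were not particular to these classes. The 4 measured genes of a reference gene list, Psmb2, B2m, Eef1b2 and Rpl22, were all above 0, with a median of 0.19. Psmb2 and Rpl22 also belong to the classes above. The small nucleolar RNAs had a median of 0.46 in siScr and 0.04 in siDicer. Snord17 had 9.06, 9.91 and 9.77 in siScr and 9.60, 9.76 and 9.70 in siDicer, where the siScr early array was the lowest of all.

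Of the 10 genes with the smallest p for lower late signals, by which they were chosen, Eng passed in both fits. Nr4a3, an orphan nuclear receptor of the immediate early class, had 8.91, 8.28 and 8.41 in siScr and 9.12, 8.35 and 8.52 in siDicer and a difference of -0.62 (limma adjusted p = 0.0978, and 0.0173 with passage as 3 levels). Scn1a, a voltage-gated sodium channel, had 5.54, 4.74 and 4.79 in siScr and 5.43, 4.73 and 4.98 in siDicer and a difference of -0.68 (0.0978 and 0.0297). Adam23, a membrane protein that binds integrins, differed by -0.59 (0.135 and 0.0146). Kcnj10 and Kcnj13, inwardly rectifying potassium channels, differed by -0.47 and -0.50. The receptor phosphatase Ptprf, the carbonic anhydrase Car14, Tmem177, a mitochondrial membrane protein, and the matrix protein Hmcn1 lay between -0.43 and -0.38, and none of these 6 passed in either fit.

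Among transcripts with higher late signals, Mcoln2, an endolysosomal cation channel, had 5.45, 5.96 and 6.10 in siScr and 5.55, 6.21 and 6.42 in siDicer, which put all late arrays above the early ones, with passage 56 the highest. It differed by 0.67 (limma adjusted p = 0.0978 and 0.0181). Its relative Mcoln3 had 10.01, 9.35 and 9.95 in siScr and 10.17, 9.36 and 9.95 in siDicer, lowest at passage 54, and a late minus early difference of -0.44 that did not pass. Its 54 minus 47 difference, -0.74, passed (limma adjusted p = 0.0131). It was the 1 such call among 19 measured pigmentation and melanosome genes, where 0.757% of all probe sets passed. Slc40a1, the iron exporter ferroportin, differed by 0.36. Itga4, the integrin alpha 4 subunit, had 6.43, 6.62 and 7.06 in siScr and 6.32, 6.56 and 7.16 in siDicer and was highest at passage 56, with a late minus early difference of 0.47 (limma adjusted p = 0.377) and a 56 minus 47 difference of 0.73 that passed (0.0394).

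Fibroblast and matrix genes had small negative differences. Of 43 measured members none passed for late minus early, where only 0.0061% of all probe sets did. Of the 43, 11 were above 0 and the median was -0.10. Early and late arrays did not overlap in 18 downward and in 0 upward, where the downward share was 11.9% of probe sets above background and 12.2% of all. Within each siRNA both late arrays lay below the early one in 26, against 19.8% above background. Postn, the matrix protein periostin, had 5.41, 5.18 and 4.93 in siScr and 5.73, 5.37 and 5.18 in siDicer and a difference of -0.41 (limma adjusted p = 0.231). Fn1, fibronectin, had 10.95, 10.72 and 10.41 in siScr and 11.07, 10.96 and 10.83 in siDicer and a difference of -0.28. The collagens Col9a1 and Col16a1 differed by -0.32 and -0.23, and the matrix metalloproteinase Mmp16 by -0.26. The defining fibroblast markers Prrx1 and Fap were below background in both groups, and the 5 fibroblast markers had a median level between 5.23 and 5.28 in the early arrays and between 4.93 and 5.18 in the late ones; the part of other cells was not tested. Against this trend Ccn1, a matricellular protein, had 10.54, 11.45 and 10.59 in siScr and 10.62, 11.40 and 10.71 in siDicer, highest at passage 54, as were Thbs1, Vcam1 and Tnc. For 54 minus 47 Ccn1 and Thbs1 rose, by 0.84 and 0.57 (limma adjusted p = 0.00797 and 0.0472). These were the 2 such calls among the 43, where 0.757% of all probe sets passed.

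Pigment genes gave no call for late minus early. Of 19 measured pigmentation and melanosome genes none passed there, where only 0.0061% of all probe sets did. Of the 19, 8 were above 0 and the median was -0.04. Tyrp1 differed by -0.04 and Pax3 by 0.01, which became -0.06 after quantile normalization and -0.09 after cyclic loess. Of the 17 lineage transcription genes none passed, with a median of -0.04. Foxd3, a neural crest factor, differed by -0.17 and Notch1 by 0.19. Of the Schwann cell and glia list all 6 measured genes were below 0, with a median of -0.17. Pmp2, a myelin protein, had 8.60, 7.98 and 8.61 in siScr and 7.56, 7.14 and 7.64 in siDicer, where passage 54 was lowest in each siRNA and passage 56 was near passage 47. Its 54 minus 47 difference of -0.52 passed (limma adjusted p = 0.0472), the 1 such call among the 6, where 0.757% of all probe sets passed. Lists for stress response, hypoxia, lipid, TGF-beta and Wnt signalling had late minus early medians between -0.04 and 0.09. For 54 minus 47, 2 of 23 TGF-beta genes and 1 of 27 stress genes passed upward. Of 33 lipid genes 1 passed upward and 1 downward. No hypoxia or Wnt gene passed there.

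**Figure D5:**
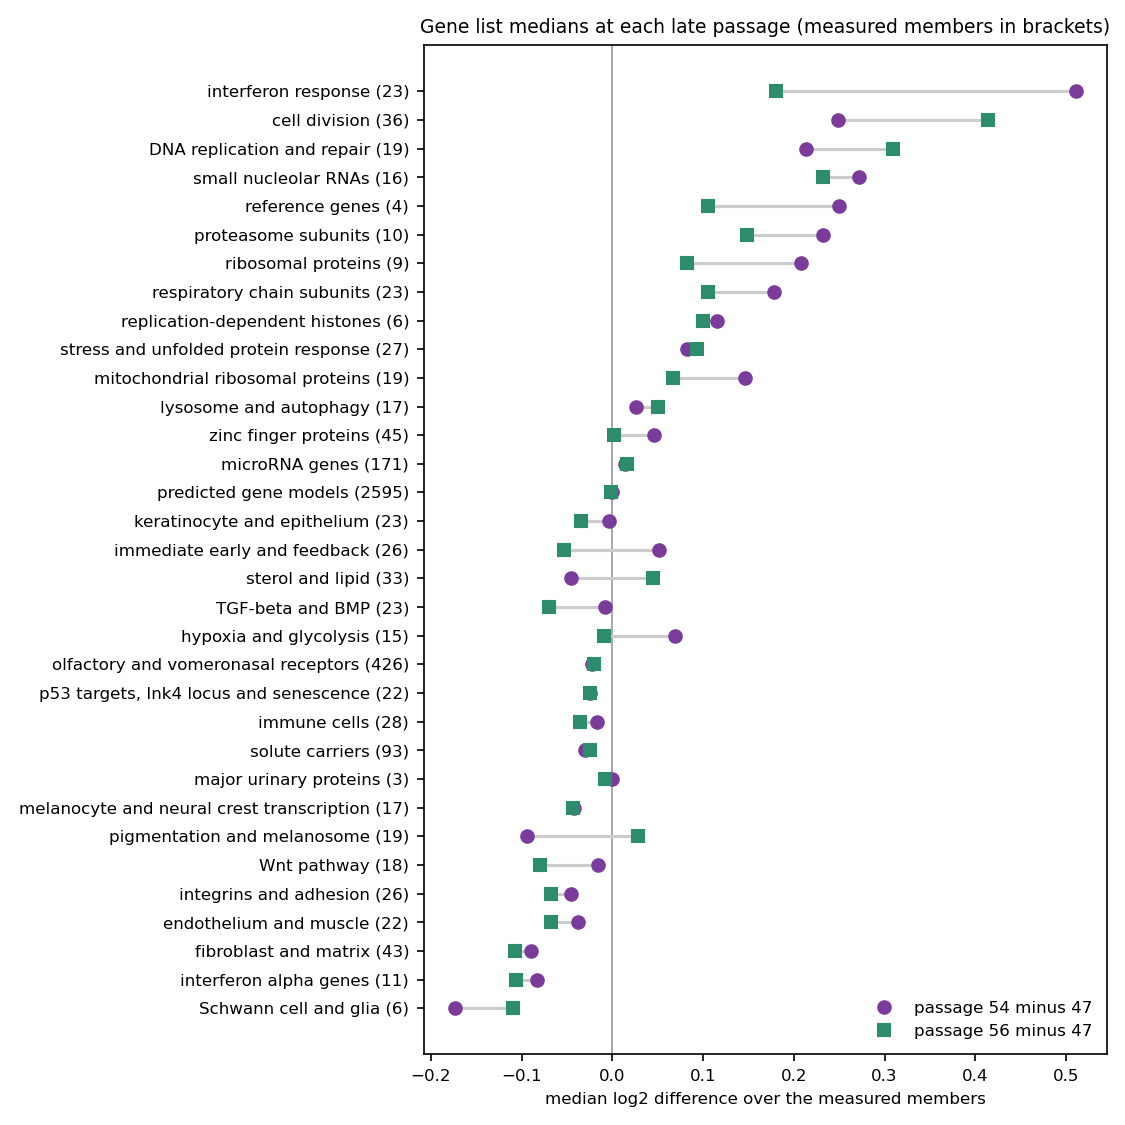
Median log2 difference from passage 47 (horizontal axis) over the measured members of 33 gene lists and symbol classes, whose sizes stand in brackets, with passage 54 as purple circles and passage 56 as green squares. The interferon list has the widest gap, from 0.51 at passage 54 to 0.18 at passage 56, and cell division runs the other way, from 0.25 to 0.41.

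Of 171 microRNA genes 1 passed with passage as 3 levels, where 0.342% of all probe sets did, and it is described as a single transcript. The probe set of Mir181b-2 had 4.22, 4.89 and 4.75 in siScr and 4.48, 5.38 and 5.02 in siDicer and a difference of 0.66 (limma adjusted p = 0.157 and 0.027). Its late arrays were all above its early ones, of which the siScr array lay at the level of background. The probe set measures the locus of the hairpin and need not follow the mature microRNA. The RefSeq mature sequences from this hairpin, with bases 2 to 8, the seed, in capitals, were as follows, and that of the neighbouring Mir181a-2 is set beside them because it shares the seed of the 5p arm.
mmu-miR-181b-5p: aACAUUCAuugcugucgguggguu
mmu-miR-181b-2-3p: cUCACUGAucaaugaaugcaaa
mmu-miR-181a-5p: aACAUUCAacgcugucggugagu

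Above background, the median late minus early difference was 0.02, 0.02, 0.03 and 0.00 on chromosomes 1, 2, 3 and 4, over 1130, 1724, 933 and 1280 genes. These medians do not register a short block such as the genes from Ifi207 to Ifi211. After quantile normalization the chromosome medians were 0 or below.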

How the data were processed

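Total RNA from the 6 transfections was measured on Clariom D arrays. The values used are log2 signals as deposited, for which the submitters' processing notes name Affymetrix Expression Console. How background was corrected and arrays were normalized is not stated, nor is a version. No further normalization was applied. The number of arrays limits the precision. Of 16383 probe sets 7530 had 1 gene symbol, 455 several and 8398 none, and 230 symbols were updated. Of those with 1 symbol, 7439 were placed on chromosomes 1 to 4 and 9 elsewhere, and 82 were not placed.

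Late minus early was fitted with limma 3.58.1 in R 4.3.3 over all probe sets, with siRNA as a covariate and Benjamini-Hochberg adjustment at 0.05; the script was tested on simulated data. The highest probe set by mean level stood for a gene in the lists. Named genes were the 10 with the smallest p in each direction, up to 4 members per list and 3 per symbol class, and Tyrp1, Pax3, Cdkn2a and Cdkn2b. Further genes given with values, among them Ifi211, Ifih1, Sp100, Gbp7, Knl1, Pcna and Ccn1, were not picked by this rule, and their values were known. The comparison of passages, whose member arrays the labels fix, and the gene lists were chosen with earlier results of these data known. Replicate numbers pair the siDicer and siScr arrays, since the labels give same-numbered arrays 1 passage. Alternatives covered scaling, filters, variance model, blocks, arrays used and threshold.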

Additional observations from a re-analysis of the deposited data

Results flagged for a closer look

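Among the 4 late arrays, 7 of the 132 named genes had 1 array whose gap to its nearest neighbour, as a share of the whole range, exceeded the critical value for 4 samples. Chance gives this in about 1 of 20 groups. Mcm6 had a ratio of 0.857, with the siDicer array of passage 54 at 9.49 and the others between 9.58 and 9.60. Prim2 had 0.909, with the same array at 9.002, against 9.15 to 9.16. Mir1953 had 0.886, again with that array low, at 5.35 against 5.49 to 5.51. In the siScr array of passage 54, Sfrp2 had a ratio of 0.9, at 6.15 against 5.95 to 5.97, and Mrpl24 had 0.891, at 7.61 against 7.42 to 7.44. In the siScr array of passage 56, Tmem177 had a ratio of 0.86, at 6.04 against 5.85 to 5.88, and Cd53 had 0.919, at 4.66 against 4.90 to 4.92. None of the 33 lists stood out in this way.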

How the results depend on the processing

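The count of probe sets past the threshold for late minus early, 1 as reported, was 56 with passage as 3 levels (replicate block), 2 with passage as a straight line, 0 with siScr arrays only, 0 with siDicer arrays only, 111 for passage 47 against 54 only, 19 for 47 against 56 only, 27 at an adjusted p under 0.1, and from 0 to 17 without 1 array. At 1.5-fold the same settings gave 45, 2, 0, 0, 96, 19 and 21, and from 0 to 17 without 1 array. For passage 56 minus 54, 0 as reported, it was 19 after median centring, 103 for means above the median, 76 for means above the receptor background, 100 with 1 symbol only, 34 with identical values entered once, 70 with a variance trend, 114 with only passages 54 and 56, 99 at an adjusted p under 0.1, and from 0 to 114 without 1 array. For any difference among the passages, 96 as reported, it was 63 after quantile normalization, 172 for means above the median, 166 with 1 symbol only, 145 with a variance trend, 193 at an adjusted p under 0.1, and from 22 to 134 without 1 array. Where leaving out an array left 1 in an arm, that array is assumed to vary like the others. The interaction stayed at 0 wherever it could be estimated, which excludes the fits without a replicate 1 array. The cause was not tested. Over 132 named genes and their alternatives, 2983 of 3000 values kept their sign, and the 6 lost calls were all of Eng. Of the 33 list medians 21 kept their sign in every setting; those of interferon response, cell division and replication were above 0 in all 24.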
